A study of Mus musculus with 13 samples.

Results

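Immediate early and heat shock genes are the genes that cells switch on within minutes of a stimulus or an insult, among them the handling that turns a tissue into a suspension of single cells. The group described here holds 33 named genes, 27 immediate early and 6 heat shock, taken by symbol from a fixed list and not by a cut on their values. That list was drawn up with earlier results of these data known. All 33 were found in both kinds of file: among 21950 genes of the bulk table and among 28693 genes of the single-cell matrices. All 33 also passed the filter of 1 FPKM on average (fragments adjusted for transcript length and for library size) over the 9 bulk libraries, as did 11497 genes in all.

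The study profiled abdominal skin epidermis of C57BL/6 mice around pregnancy. Bulk RNA came from interfollicular basal keratinocytes, sorted as CD49f positive and CD34 negative, in 3 groups of 3 libraries: K14creERT2;Tbx3flox/flox mice at gestation day 16 (cKO dpc16), wild type mice at gestation day 16 (WT dpc16) and non-pregnant wild type mice (WT NP). In the cKO mice the keratin 14 promoter drives a recombinase that tamoxifen activates, which removes floxed Tbx3 in basal keratinocytes, and the sources used here give neither the part of the gene removed, nor the dosing, nor whether WT mice of the bulk groups had tamoxifen. Single-cell libraries of whole epidermis, 1 for each state, came from tamoxifen-treated Tbx3creERT2; R26H2B EGFP mice that were non-pregnant (NP, tamoxifen for 3 days), at gestation day 16 (dpc16) or at days 6 and 40 post partum (dpp6, dpp40). In every sample the skin stood in trypsin at 37 °C before any RNA was taken, and the bulk samples then also passed through antibody staining for 30 min on ice and a sort, so no group lacks dissociation and no library was made from undissociated skin.

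Immediate early genes need no new protein to be transcribed: kinases of the MAP kinase pathways act on factors such as SRF, ELK and CREB that already sit at their promoters. Their products include the AP-1 factors of the FOS and JUN families, the EGR and NR4A factors, and feedback proteins that shut the response down, such as the DUSP phosphatases and the mRNA decay factor ZFP36. Heat shock genes answer to HSF1 when proteins unfold, and their products are the HSP70 chaperones and their partners; in skin, several members of both classes also act in normal keratinocyte growth and differentiation.

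To show the letters that the regulators of both classes are known to bind, the promoters of 6 members are given: 3 immediate early genes with cyclic AMP response element (CRE) letters and 3 heat shock genes with heat shock element letters. RefSeq promoters (build GRCm38.p6, the 250 bases before the start) were found for 27 of the 33 members, 35 promoters in all because some genes have several; Ier2, Myc, Egr3, Hspa8, Egr1 and Fosl1 had no entry. Each sequence runs 5′ to 3′ on the gene's own strand, with matches in capitals. In the first 3 the capitals mark the CRE core (TGACG, or CGTCA on the other strand) and, in Dusp1, also the full CRE (TGACGTCA), which holds the core on both strands. In the last 3 they mark a heat shock element of 2 facing units (GAA and TTC with any 2 bases between, in either order, both strands). Fos lies at chr12:85473640-85473889 (+), Nr4a1 at chr15:101266596-101266845 (+), Dusp1 at chr17:26508473-26508722 (-), Hspa1a at chr17:34972157-34972406 (-), Hspb1 at chr5:135887669-135887918 (+) and Hsph1 at chr5:149636316-149636565 (-).
Fos: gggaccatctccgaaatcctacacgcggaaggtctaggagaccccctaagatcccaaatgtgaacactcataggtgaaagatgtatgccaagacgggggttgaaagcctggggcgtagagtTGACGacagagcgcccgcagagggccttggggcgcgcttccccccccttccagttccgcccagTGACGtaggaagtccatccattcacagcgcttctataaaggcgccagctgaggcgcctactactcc
Nr4a1: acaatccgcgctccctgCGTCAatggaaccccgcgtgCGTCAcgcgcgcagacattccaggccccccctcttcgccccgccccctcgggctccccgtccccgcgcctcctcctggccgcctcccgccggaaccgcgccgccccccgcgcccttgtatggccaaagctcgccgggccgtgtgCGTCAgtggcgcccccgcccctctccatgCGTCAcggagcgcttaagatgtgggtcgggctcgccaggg
Dusp1: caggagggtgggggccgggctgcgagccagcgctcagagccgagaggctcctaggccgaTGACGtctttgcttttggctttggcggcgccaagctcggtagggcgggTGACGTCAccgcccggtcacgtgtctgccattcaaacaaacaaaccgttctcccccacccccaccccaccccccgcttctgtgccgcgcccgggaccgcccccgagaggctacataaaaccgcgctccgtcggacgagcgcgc
Hspa1a: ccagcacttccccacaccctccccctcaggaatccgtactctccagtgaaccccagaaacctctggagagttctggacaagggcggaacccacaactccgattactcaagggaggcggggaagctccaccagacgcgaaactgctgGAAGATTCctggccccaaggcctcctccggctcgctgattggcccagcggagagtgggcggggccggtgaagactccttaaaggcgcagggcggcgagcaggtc
Hspb1: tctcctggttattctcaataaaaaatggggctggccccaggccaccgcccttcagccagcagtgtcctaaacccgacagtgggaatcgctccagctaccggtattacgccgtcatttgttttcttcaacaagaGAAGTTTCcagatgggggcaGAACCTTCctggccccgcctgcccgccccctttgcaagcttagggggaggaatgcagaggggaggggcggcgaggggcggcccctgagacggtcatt
Hsph1: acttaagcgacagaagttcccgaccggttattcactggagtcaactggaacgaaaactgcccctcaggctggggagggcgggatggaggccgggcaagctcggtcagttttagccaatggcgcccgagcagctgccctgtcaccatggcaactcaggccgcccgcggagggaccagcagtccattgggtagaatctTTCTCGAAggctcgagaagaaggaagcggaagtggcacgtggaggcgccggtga

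The heat shock element of 2 units was present in the promoters of 4 of the 5 heat shock genes with an entry (Hspa1a, Hspa1b, Hspb1 and Hsph1) and of 3 of the 22 immediate early genes, against 12.8% of all 32851 promoters of this length. The CRE core was present for 12 of 22 immediate early genes and 2 of 5 heat shock genes, against 17.8% of all promoters, and the full CRE for 3 of 22 (Maff, Dusp1 and Btg2) and 0 of 5, against 1.55%. Nr4a1 carried 4 CRE cores and Fos 2. A CArG box, the letters bound by SRF, was present for 2 of 22 (Egr2 and Zfp36), against 1.47%, and the letters TATAAA for 2 of 22 (Fos and Gadd45b), against 12.4%. No member had the AP-1 letters TGANTCA (6.75% of all promoters) or a heat shock element of 3 units (a further such unit 2 bases on; 0.466%) in this window. A gene with several promoters was counted when any of them matched, while the percentages are of single promoters. The gene counts therefore lean high beside those percentages. These matches are letters in a window of fixed length, and no binding was measured.

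In the bulk libraries the basal keratin Krt5 stood at 5822 to 14070 FPKM, Cd34, the marker the sort removes, at 0 to 2.23, the leukocyte marker Ptprc at 0.495 or below and the endothelial marker Pecam1 at 3.73 or below. Of 8 T cell markers in the table, 7 stood at 3.86 or below, and Thy1 alone was high, at 119 to 853. Markers of spinous and upper follicle cells were abundant too. The lists summed to 3601 to 15428 FPKM for spinous cells and 796 to 4242 for upper follicle, against 14837 to 29424 for basal interfollicular cells. The bulge and outer root sheath list summed to 8002 to 10995 FPKM, but Krt15 alone held 7890 to 10779 of it. Every other marker of that list stood at 210 FPKM or below. Tbx3 was lowest in the cKO dpc16 libraries (4.81, 1.65 and 4.89 FPKM), against 16.96, 15.29 and 22.98 in the WT dpc16 libraries. Summed FPKM per library lay between 785636 and 847693, and the read depth behind FPKM is unknown. No label ties the 3 libraries of a group to separate animals, so the p-values below measure only their spread, part of which may be technical. In bulk RNA, fewer cells of a type and less RNA per cell cannot be told apart.

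How far the stress genes varied between libraries that carry the same label is the first question. In both pregnant groups they varied several times more than other genes did. In the non-pregnant group their median range was near that of all genes and above that of genes that averaged at least 50 FPKM. The 27 immediate early members together made up 22978, 15211 and 6941 FPKM in cKO dpc16 libraries 1, 2 and 3, 19946, 13101 and 2853 FPKM in WT dpc16 libraries 1, 2 and 3, and 7725, 9168 and 9489 FPKM in the WT NP libraries. Library 1 held the highest sum and library 3 the lowest in both dpc16 groups, while the 3 NP libraries lay close together and between those extremes. The highest library stood 3.31 times above the lowest in cKO dpc16, 6.99 times in WT dpc16 and 1.23 times in WT NP. As a share of all FPKM, the 27 genes took 2.71, 1.86 and 0.851% in the cKO dpc16 libraries.

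The 6 heat shock members had the same order of libraries within each group. Their sums were 4989, 3061 and 1459 FPKM in the cKO dpc16 libraries, 3684, 2808 and 1419 in the WT dpc16 libraries and 1924, 2189 and 2522 in the WT NP libraries, so the highest stood 3.42, 2.60 and 1.31 times above the lowest within those groups. The group means overlapped widely: 15043 ± 8019.6 FPKM of immediate early members in cKO dpc16, 11967 ± 8603 in WT dpc16 and 8794 ± 939.7 in WT NP (SD, n = 3 each), and 3169.7 ± 1767, 2637 ± 1142 and 2212 ± 299.5 FPKM of heat shock members in the same order of groups.

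**Figure D1:**
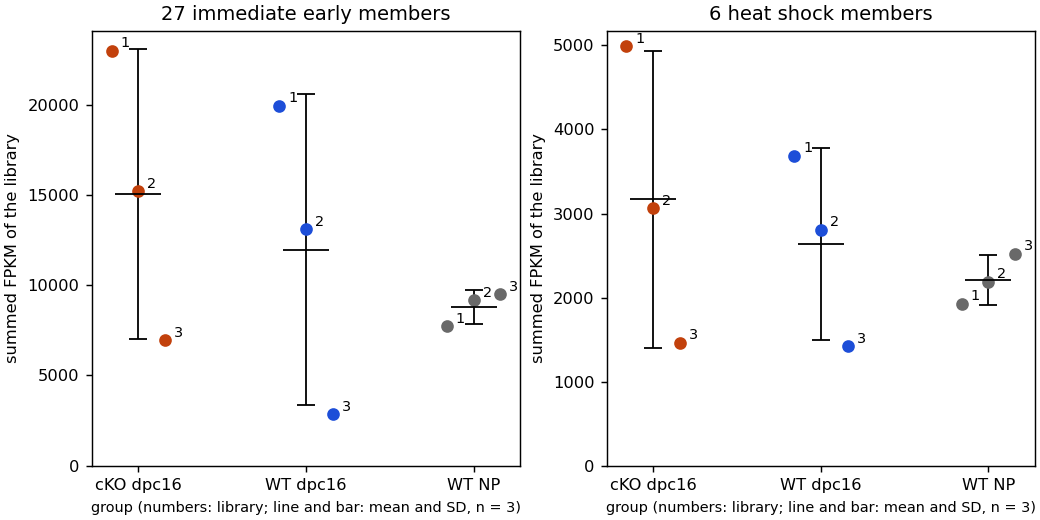
Summed FPKM of the 27 immediate early members (left) and the 6 heat shock members (right) in each of the 9 bulk libraries, by group; numbers are library numbers, and the line and bar are the mean and SD (n = 3). In both dpc16 groups library 1 is highest and library 3 lowest, while the 3 WT NP libraries lie between 7725 and 9489 FPKM for the immediate early sum.

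Gene by gene, the range of a member over the 3 libraries of a group had a median of 1.65 in cKO dpc16, 2.26 in WT dpc16 and 0.60 in WT NP, in log2(FPKM + 1). Over all 11497 genes tested the same medians were 0.48, 0.39 and 0.53. A range above 1 was seen for 31 of 33 members in cKO dpc16 (14.4% of all genes), 30 of 33 in WT dpc16 (9.93%) and 8 of 33 in WT NP (16.4%). For the 2374 genes that averaged at least 50 FPKM the medians were 0.38, 0.29 and 0.42, and 8.38, 5.69 and 5.69% had such a range. Some members averaged less than 50 FPKM. The SD that remained within groups in the fit of all 9 libraries had a median of 0.90 over the members and 0.28 over all genes, and 29 of the 33 members stood in the highest 10% of genes by this measure. Hsph1, which encodes the HSP110 nucleotide exchange factor of HSP70, was at percentile 41.5 and so varied no more than an ordinary gene.

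Most members shared 1 order of libraries in the dpc16 groups. In WT dpc16, 31 of 33 members ran library 1 over 2 over 3 (24.99% of all genes did), and in cKO dpc16 27 of 33 did (20.9%), against 0 of 33 in WT NP (17.3%). The steepest members in WT dpc16 were Fosl1, at 42.7 times more FPKM in library 1 than in library 3, Nr4a1 at 20.6 times, Klf2 at 18.7 times, Fosb at 17.5 times and Atf3 at 15.7 times. In cKO dpc16 the same ratio was 9.48 for Fosl1, 8.61 for Nr4a1 and 7.02 for Btg2. Hsph1 had the smallest of these ratios among the heat shock members, 1.45 in cKO dpc16 and 1.48 in WT dpc16.

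**Figure D2:**
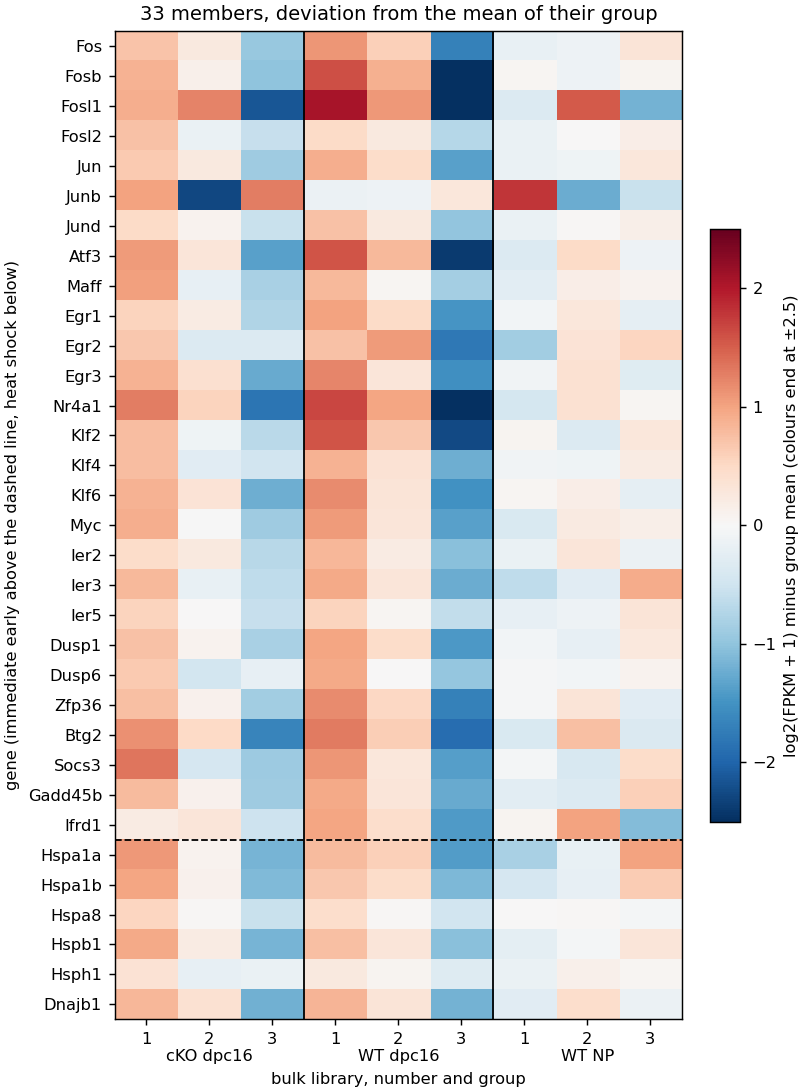
Deviation of log2(FPKM + 1) from the mean of its group for each of the 33 members (genes down the page, heat shock members below the dashed line) in each of the 9 bulk libraries (columns, by group); colours end at ±2.5. Columns of library 1 are red and columns of library 3 blue for nearly all genes in both dpc16 groups, while the WT NP columns show no such common order and Junb departs from it.

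Other measures moved with these libraries, and their part in the spread was not tested. Mitochondrially encoded genes took 1.73, 2.13 and 6.03% of all FPKM in cKO dpc16 libraries 1, 2 and 3, 2.17, 3.35 and 6.16% in the WT dpc16 libraries and 3.55, 4.58 and 1.43% in the WT NP libraries, so they were highest in the dpc16 libraries where the stress genes were lowest. The summed FPKM of spinous markers, genes of differentiating suprabasal cells, was 3601, 4068 and 5407 in cKO dpc16, 6017, 6806 and 15428 in WT dpc16 and 10427, 10958 and 9040 in WT NP, likewise highest in library 3 of both dpc16 groups. Upper follicle markers summed to 2539, 1563 and 1866 FPKM in cKO dpc16, 1698, 1425 and 796 in WT dpc16 and 1221, 1471 and 4242 in WT NP, highest in library 1 of both dpc16 groups and in NP library 3. Cell cycle markers summed to 347, 356 and 528 FPKM in cKO dpc16, 296, 313 and 625 in WT dpc16 and 606, 732 and 597 in WT NP. Whether the number of a library marks a shared day or batch is not stated, and the columns of the table carry only a group name and a number.

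The comparison of cKO dpc16 with WT dpc16 addresses the loss of Tbx3 in basal cells of pregnant mice. No stress gene passed the test in it: 0 of 33 members had a Benjamini-Hochberg adjusted p under 0.05 by limma over all 11497 genes, of which 2.15% passed, 1.23% higher and 0.922% lower. An unadjusted p under 0.05 was seen for 3 members, Maff higher in cKO and Dusp6 and Hsph1 lower, and for 17.4% of all genes, 9.19% higher and 8.24% lower. The cKO and WT dpc16 libraries overlapped for every one of the 33 members, while they did not overlap for 26.2% of all genes. The log2 change was above 0 for 23 of 33 members (50.8% of all genes), with a median of 0.40 over the members and 0.01 over all genes.

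That direction rested on 1 library on each side. Without WT dpc16 library 3, 9 of 33 members lay above 0 and the median was -0.39; without cKO dpc16 library 1, 16 of 33 did, with a median of -0.04. Without any other single dpc16 library the count was 22 to 27 of 33 and the median 0.40 to 1.01. WT dpc16 against WT NP, which asks what pregnancy changes, behaved alike: 24 of 33 members lay above 0 (46.1% of all genes) with a median of 0.33, but 9 of 33 with a median of -0.16 without WT dpc16 library 1, and 30 of 33 with a median of 0.92 without WT dpc16 library 3. No member passed there either by limma (0.13% of genes did, 0.104% higher and 0.0261% lower), and 3 had an unadjusted p under 0.05, all higher (9.05% of genes, 3.71% higher and 5.33% lower). Those 3, Junb, Ier5 and Dusp6, were higher in all 3 WT dpc16 libraries than in all 3 WT NP libraries (3 of 33, against 6.82% of genes). The comparisons share libraries, so their values are given side by side.

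**Figure D3:**
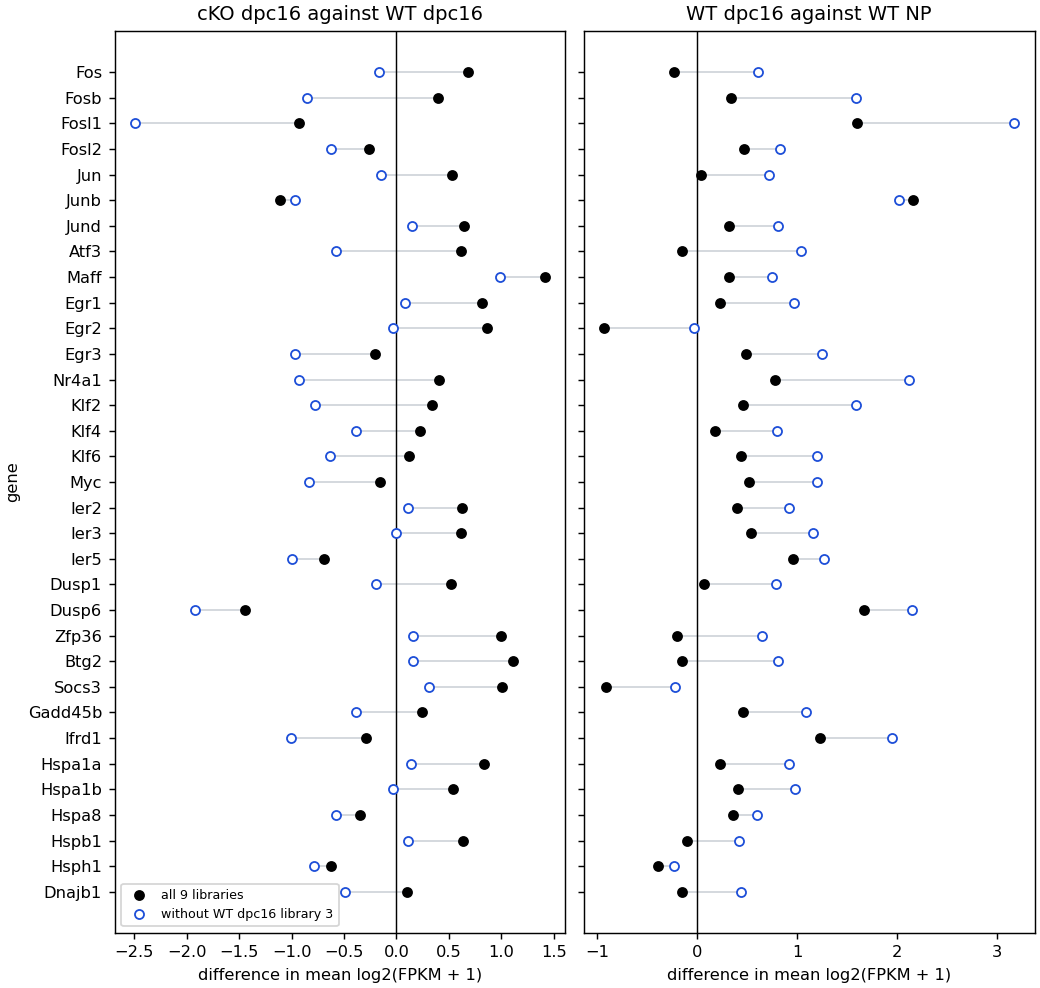
Difference in mean log2(FPKM + 1) for each of the 33 members, cKO dpc16 against WT dpc16 (left) and WT dpc16 against WT NP (right); filled points use all 9 libraries and open points leave out WT dpc16 library 3. Without that library 9 of 33 members lie above 0 on the left, against 23 with it, and 30 of 33 lie above 0 on the right, against 24.

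Against WT NP, the cKO dpc16 libraries stood higher for 30 of 33 members (48.4% of all genes), with a median of 0.59, and the count was 22 of 33 with a median of 0.22 without cKO dpc16 library 1. Only Hsph1 passed the test in this comparison, 1 of 33 where 5.66% of all genes passed (2.76% higher and 2.91% lower), and it was lower in cKO dpc16. Jund, Maff, Egr1 and Ier2 were higher in all 3 cKO dpc16 libraries than in all 3 WT NP libraries (4 of 33, against 12.2% of genes) without passing, and Hsph1 was lower in all 3 (14.2% of genes).

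Among the FOS family, whose proteins pair with JUN proteins to form AP-1, Fos (ENSMUSG00000021250.13, mm10 chr12:85473890-85477273) was one of the most abundant transcripts of these cells and ranked between 10 and 153 of all genes by FPKM in a library. Fos had 6049.8, 4386 and 1922 FPKM in the cKO dpc16 libraries, 4948, 3481 and 713 in the WT dpc16 libraries and 2406, 2475 and 3378 in the WT NP libraries. Libraries 1 and 2 of both dpc16 groups lay above every NP library, and library 3 of both lay below. The log2 change of Fos was 0.68 ± 0.64 (SE) in cKO against WT dpc16 (limma adjusted p = 0.637) and -0.24 ± 0.64 in WT dpc16 against NP (limma adjusted p = 0.95). Neither exceeded the spread between libraries, and both changed sign when WT dpc16 library 3 was left out.

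Fosb had 1356, 816 and 373 FPKM in the cKO dpc16 libraries, 1736, 1044 and 99.4 in the WT dpc16 libraries and 462, 414 and 474 in the WT NP libraries. Fosl1 had 57.6, 72.9 and 6.08 FPKM in the cKO dpc16 libraries, 247, 124 and 5.78 in the WT dpc16 libraries and 14.4, 55.9 and 7.62 in the WT NP libraries. Fosl1 encodes FRA1, an AP-1 subunit of migrating and wounded keratinocytes, and its lowest values were those of library 3 in all 3 groups. Fosl2 had 92.5, 49.3 and 36.7 FPKM in the cKO dpc16 libraries, 92.9, 78.7 and 40.2 in the WT dpc16 libraries and 42.3, 47.9 and 53.9 in the WT NP libraries. Fosl2, which encodes FRA2, had a log2 change of 0.47 ± 0.36 (SE) in WT dpc16 against NP (limma adjusted p = 0.756), with groups that overlap.

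Jun, the main partner of FOS, followed it library by library. Jun had 1237, 921 and 419 FPKM in the cKO dpc16 libraries, 1011, 747 and 211 in the WT dpc16 libraries and 467, 487 and 644 in the WT NP libraries. Its log2 change was 0.53 ± 0.54 (SE) in cKO against WT dpc16 (limma adjusted p = 0.674) and 0.04 ± 0.54 in WT dpc16 against NP (limma adjusted p = 0.993), and the first changed sign without WT dpc16 library 3. Jund had 808, 614 and 394 FPKM in the cKO dpc16 libraries, 619.6, 443 and 188 in the WT dpc16 libraries and 268, 304 and 330.0 in the WT NP libraries. Jund, a JUN protein present in resting cells, had a log2 change of 0.64 ± 0.39 (SE) in cKO against WT dpc16 (limma adjusted p = 0.44), and all 3 cKO values lay above all 3 NP values. Junb had 8.77, 0 and 10.8 FPKM in the cKO dpc16 libraries, 8.49, 8.57 and 11.7 in the WT dpc16 libraries and 7.16, 0 and 0.598 in the WT NP libraries. Junb is listed at 0 in cKO dpc16 library 2 and WT NP library 2, where other AP-1 genes were abundant, and FPKM of exactly 0 can be a failed estimate. The log2 change of 2.15 ± 0.94 (SE) for Junb in WT dpc16 against NP (limma adjusted p = 0.532) therefore rests on values listed at or near 0, and in the single-cell libraries Junb was among the abundant members.

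Atf3, a stress-induced factor that pairs with JUN, differed strongly between libraries of the same group. Atf3 had 2978, 1757 and 552 FPKM in the cKO dpc16 libraries, 2779.7, 1634 and 177 in the WT dpc16 libraries and 815, 1451 and 946 in the WT NP libraries. WT dpc16 library 3 held the lowest Atf3 of all 9 libraries and cKO dpc16 library 1 the highest. The log2 change was 0.61 ± 0.91 (SE) in cKO against WT dpc16 (limma adjusted p = 0.792) and -0.16 ± 0.91 in WT dpc16 against NP (limma adjusted p = 0.979), and both changed sign without WT dpc16 library 3. Maff had 72.8, 30.1 and 19.5 FPKM in the cKO dpc16 libraries, 22.6, 13.0 and 6.47 in the WT dpc16 libraries and 8.02, 11.2 and 10.6 in the WT NP libraries. Maff, a small MAF protein without an activation domain, had the smallest p among members higher in cKO, with a log2 change of 1.42 ± 0.48 (SE) in cKO against WT dpc16 (limma adjusted p = 0.164). Against WT NP all 3 cKO libraries stood higher, with a log2 change of 1.74 ± 0.48 (SE) and a limma adjusted p of 0.0664 that ranged from 0.0358 to 0.192 over the alternatives. It was 0.0358 without cKO dpc16 library 3, the lowest of the 3, and 0.0471 with the column number as a replicate block.

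The EGR zinc finger factors and the orphan receptor Nr4a1 are read out by MAP kinase and cyclic AMP signals. Egr1 had 1427, 1113 and 572 FPKM in the cKO dpc16 libraries, 1103, 764 and 196 in the WT dpc16 libraries and 447, 569.7 and 403 in the WT NP libraries. Its log2 change was 0.82 ± 0.55 (SE) in cKO against WT dpc16 (limma adjusted p = 0.49) and 0.23 ± 0.55 in WT dpc16 against NP (limma adjusted p = 0.945); every cKO library stood above every NP library, but cKO and WT dpc16 overlapped. Egr2 had 65.1, 31.3 and 31.6 FPKM in the cKO dpc16 libraries, 36.5, 46.2 and 5.50 in the WT dpc16 libraries and 22.7, 53.2 and 61.2 in the WT NP libraries. For Egr2 the log2 change in WT dpc16 against NP was -0.93 ± 0.68 (SE, limma adjusted p = 0.746), and without WT dpc16 library 3, where Egr2 was at 5.50 FPKM, it was -0.03. Nr4a1 had 1173, 710.4 and 136 FPKM in the cKO dpc16 libraries, 1172, 728 and 56.8 in the WT dpc16 libraries and 157, 278 and 221 in the WT NP libraries. Egr3 had 27.5, 19.4 and 5.46 FPKM in the cKO dpc16 libraries, 40.9, 21.2 and 5.20 in the WT dpc16 libraries and 11.1, 15.8 and 9.41 in the WT NP libraries. Nr4a1 in libraries 1 and 2 of both dpc16 groups stood above all 3 NP values, and in library 3 of both below them.

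The KLF factors and Myc have lasting roles in keratinocytes as well: KLF4 is needed for the skin barrier and MYC drives basal cells out of the stem cell state. Klf4 had 746, 359.8 and 314 FPKM in the cKO dpc16 libraries, 683, 483 and 161 in the WT dpc16 libraries and 311, 307 and 381 in the WT NP libraries. Myc had 260.0, 138 and 74.0 FPKM in the cKO dpc16 libraries, 323, 191 and 59.7 in the WT dpc16 libraries and 83.3, 127 and 119.5 in the WT NP libraries. In libraries 1 and 2 of both dpc16 groups Myc stood above every NP value, and in library 3 of both below every NP value. Klf6 ran from 43.7 to 289 FPKM and Klf2 from 2.85 to 53.2 FPKM over the 9 libraries, each lowest in WT dpc16 library 3 and highest in WT dpc16 library 1.

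The feedback genes held the member with the smallest p in cKO against WT dpc16, Dusp6. Dusp6 encodes the phosphatase that switches off ERK and is itself switched on by ERK signalling. Dusp6 had 41.2, 18.6 and 22.2 FPKM in the cKO dpc16 libraries, 139.8, 72.1 and 36.4 in the WT dpc16 libraries and 21.6, 20.9 and 23.4 in the WT NP libraries. In WT dpc16 all 3 libraries lay above all 3 NP libraries, and cKO dpc16 library 1 alone among the cKO libraries reached the range of WT dpc16. The log2 change was -1.44 ± 0.43 (SE) in cKO against WT dpc16 (limma adjusted p = 0.117) and 1.66 ± 0.43 in WT dpc16 against NP (limma adjusted p = 0.215), neither past the threshold. Ier5 had 13.5, 8.997 and 5.64 FPKM in the cKO dpc16 libraries, 22.3, 15.5 and 9.47 in the WT dpc16 libraries and 6.13, 6.52 and 9.25 in the WT NP libraries. Ier5 had a log2 change of -0.69 ± 0.34 (SE) in cKO against WT dpc16 (limma adjusted p = 0.334) and of 0.96 ± 0.34 in WT dpc16 against NP (limma adjusted p = 0.394), with cKO and WT dpc16 libraries that overlap.

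Zfp36 had 1619, 1043 and 530.5 FPKM in the cKO dpc16 libraries, 1093, 687 and 149.5 in the WT dpc16 libraries and 544, 690.2 and 455 in the WT NP libraries. Socs3 had 771, 227 and 161 FPKM in the cKO dpc16 libraries, 325, 184 and 57.4 in the WT dpc16 libraries and 277, 216 and 392 in the WT NP libraries. Socs3 encodes an inhibitor of cytokine receptor signalling, and cKO dpc16 library 1 held its highest value of the 9 libraries. The log2 change in cKO against WT dpc16 was 0.995 ± 0.64 (SE) for Zfp36 (limma adjusted p = 0.463). Neither Zfp36 nor Socs3 differed beyond the spread between libraries. For Socs3 it was 1.004 ± 0.66 (SE, limma adjusted p = 0.471), and -0.92 ± 0.66 in WT dpc16 against NP (limma adjusted p = 0.737). Ifrd1 had 184, 197 and 110.0 FPKM in the cKO dpc16 libraries, 387, 263 and 72.0 in the WT dpc16 libraries and 86.6, 166 and 38.5 in the WT NP libraries. Ifrd1, a transcriptional co-regulator, had a log2 change of 1.23 ± 0.63 (SE) in WT dpc16 against NP (limma adjusted p = 0.619). Dusp1, the phosphatase of p38 and JNK, stood between 295 and 1901 FPKM, Btg2 between 44.7 and 824, Ier2 between 158 and 688, Gadd45b between 23.5 and 119.6 and Ier3 between 24.8 and 164 FPKM, with the lowest value of each in WT dpc16 library 3 and the highest in cKO dpc16 library 1.

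Of the heat shock members, the inducible HSP70 genes Hspa1a and Hspa1b are near-identical copies on chromosome 17, so the split of fragments between them is uncertain. Hspa1a had 358, 177 and 73.8 FPKM in the cKO dpc16 libraries, 162, 142 and 35.0 in the WT dpc16 libraries and 44.7, 69.5 and 162 in the WT NP libraries. Hspa1b had 854, 465 and 199 FPKM in the cKO dpc16 libraries, 475, 404 and 135 in the WT dpc16 libraries and 165, 193 and 345 in the WT NP libraries. The log2 change in cKO against WT dpc16 was 0.84 ± 0.70 (SE) for Hspa1a (limma adjusted p = 0.593) and 0.54 ± 0.57 for Hspa1b (limma adjusted p = 0.688). In WT dpc16 against NP it was 0.23 ± 0.70 for Hspa1a (limma adjusted p = 0.957) and 0.41 ± 0.57 for Hspa1b (limma adjusted p = 0.883). Both were highest in cKO dpc16 library 1 and lowest in WT dpc16 library 3, and within NP library 3 was highest, the reverse of the order in the dpc16 groups.

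Dnajb1 had 305, 223 and 74.4 FPKM in the cKO dpc16 libraries, 289, 202 and 70.7 in the WT dpc16 libraries and 146, 242 and 161 in the WT NP libraries. Dnajb1 encodes the HSP40 co-chaperone that loads clients onto HSP70, and its log2 change was 0.10 ± 0.57 (SE) in cKO against WT dpc16 (limma adjusted p = 0.962) and -0.15 ± 0.57 in WT dpc16 against NP (limma adjusted p = 0.965). Hspa8 had 1267, 885 and 588 FPKM in the cKO dpc16 libraries, 1494, 1134 and 798 in the WT dpc16 libraries and 870.0, 882 and 838 in the WT NP libraries. Hspa8, the constitutive HSC70, had a narrower range, and its log2 change was -0.35 ± 0.28 (SE) in cKO against WT dpc16 (limma adjusted p = 0.574) and 0.36 ± 0.28 in WT dpc16 against NP (limma adjusted p = 0.759). Hspb1, the small heat shock protein HSP27 that rises as keratinocytes differentiate, ran from 348 to 2171 FPKM over the 9 libraries. Hsph1 had 34.2, 23.02 and 23.6 FPKM in the cKO dpc16 libraries, 49.1, 43.8 and 33.2 in the WT dpc16 libraries and 48.9, 59.5 and 56.3 in the WT NP libraries. Hsph1 was the member that fell in cKO against NP, by 1.02 on the log2 scale (SE 0.20, limma adjusted p = 0.0236), with all 3 cKO libraries below all 3 NP libraries. Its adjusted p ranged from 0.0188 to 0.0737 over the alternatives: it was 0.0710 without cKO dpc16 library 2, 0.0737 or 0.0621 without NP library 2 or 3, and 0.0547 in a fit of the 6 libraries compared. In cKO against WT dpc16 Hsph1 had -0.63 ± 0.20 (SE, limma adjusted p = 0.143) and in WT dpc16 against NP -0.39 ± 0.20 (limma adjusted p = 0.622).

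Of 43 further immediate early genes from a wider list, 38 were tested. In cKO against WT dpc16, 2 of the 38 rose and 0 fell, 27 lay above 0 and the median log2 change was 0.27 (over all genes 1.23% passed higher and 0.922% lower, 50.8% lay above 0 and the median was 0.01). The 2 were Sgk1, a kinase induced by serum and glucocorticoids, and Ctgf, a matricellular protein. Sgk1 had 274, 142 and 150.0 FPKM in the cKO dpc16 libraries, 75.7, 57.2 and 42.6 in the WT dpc16 libraries and 44.0, 36.4 and 69.9 in the WT NP libraries. Sgk1 had a log2 change of 1.65 ± 0.32 (SE, limma adjusted p = 0.0328) in cKO against WT dpc16 and of 1.88 ± 0.32 (limma adjusted p = 0.0136) in cKO against NP, and all 3 cKO libraries stood above all others. Ctgf had 54.8, 19.7 and 40.1 FPKM in the cKO dpc16 libraries, 10.4, 8.11 and 7.22 in the WT dpc16 libraries and 7.61, 17.5 and 19.9 in the WT NP libraries. Ctgf had a log2 change of 1.93 ± 0.40 (SE, limma adjusted p = 0.042) in cKO against WT dpc16, with no overlap between those groups. The adjusted p of Sgk1 in cKO against WT dpc16 was 0.103, 0.0594, 0.0588, 0.118, 0.105 and 0.0502 without cKO dpc16 libraries 1 and 2, WT dpc16 libraries 1, 2 and 3 and NP library 1, in that order, in a range of 0.0231 to 0.118. That of Ctgf was 0.146, 0.0673, 0.0948, 0.141, 0.124 and 0.0601 without cKO dpc16 libraries 1 and 3, WT dpc16 libraries 1, 2 and 3 and NP library 2, in a range of 0.0284 to 0.146. In WT dpc16 against NP 0 of 38 passed, with 27 above 0 (46.1% of all genes) and a median of 0.30 (-0.03 over all genes), and 2 had an unadjusted p under 0.05 (9.05% of all genes).

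These further immediate early genes followed the members across libraries. In a fit that added the mean deviation of the 27 immediate early members in a library as a covariate, the slope was above 0 for 38 of the 38, with a median of 0.65, against 55.1% of all genes and a median of 0.02. A slope of 1 means that a gene moves as far as the members do on the log2 scale. Csrnp1, which encodes a nuclear protein, had a slope of 1.79, and the NR4A factor Nr4a2 had 1.48, the clock repressor Bhlhe40 1.53 and Ppp1r15a, which ends the integrated stress response, 1.22. The covariate is made of the same libraries, so these slopes describe them only. Among 22 further chaperone and heat shock genes 13 slopes were above 0, with a median of 0.08.

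Most of the 22 further chaperone genes had a log2 change below 0 in each comparison. In cKO against NP 5 of 22 fell and 0 rose, with 6 above 0 and a median of -0.19, where 2.91% of all genes fell, 2.76% rose, 48.4% lay above 0 and the median was -0.02. The 5 were Stip1, Ahsa1, Fkbp4, St13 and Hspd1. The first 4 encode co-chaperones of HSP90 or HSP70, and Hspd1 encodes the mitochondrial HSP60. Stip1 had 37.9, 46.8 and 51.3 FPKM in the cKO dpc16 libraries, 75.1, 70.9 and 65.2 in the WT dpc16 libraries and 76.3, 102 and 112 in the WT NP libraries. Stip1 fell by 1.07 on the log2 scale (SE 0.18, limma adjusted p = 0.0136), Fkbp4 by 0.94 (limma adjusted p = 0.0329), Ahsa1 by 0.84 (limma adjusted p = 0.032), St13 by 0.84 (limma adjusted p = 0.0367) and Hspd1 by 0.78 (limma adjusted p = 0.0372). Stip1 missed the threshold without cKO dpc16 library 1 (0.0530), and the other 4 missed it without cKO dpc16 library 1 or 2, WT dpc16 library 1 or 2 or NP library 2 or 3, Fkbp4 and Hspd1 also without NP library 1 and St13 also without cKO dpc16 library 3, with adjusted p up to 0.0968 for Ahsa1, 0.119 for Fkbp4, 0.104 for St13 and 0.126 for Hspd1. In cKO against WT dpc16 and in WT dpc16 against NP 0 of 22 passed, with 6 and 3 at an unadjusted p under 0.05, 6 and 7 above 0 and medians of -0.23 and -0.20. Over all genes 17.4 and 9.05% had an unadjusted p under 0.05 and 50.8 and 46.1% lay above 0 in the same comparisons.

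Of 17 genes upstream of the response (SRF and ELK factors, MAP kinases, ERBB receptors and HSF factors), 1 passed in cKO against WT dpc16, higher (1.23% of all genes did). It was Erbb3, a receptor of neuregulins. Erbb3 had 116, 76.6 and 59.3 FPKM in the cKO dpc16 libraries, 34.3, 34.8 and 40.6 in the WT dpc16 libraries and 45.6, 37.3 and 51.6 in the WT NP libraries. Erbb3 rose by 1.13 on the log2 scale (SE 0.23, limma adjusted p = 0.042), with all 3 cKO libraries above all 6 others. It missed the threshold in 7 of the 9 fits that left out 1 library, at 0.108 and 0.0950 without cKO dpc16 libraries 1 and 2, 0.139, 0.147 and 0.0952 without WT dpc16 libraries 1, 2 and 3, and 0.0612 and 0.0545 without NP libraries 1 and 2. Of 13 tested genes of the endoplasmic reticulum and oxidative stress responses, 0 passed in any comparison, with 3 at an unadjusted p under 0.05 in cKO against WT dpc16, 0 in WT dpc16 against NP and 2 in cKO against NP (17.4, 9.05 and 23.8% of all genes).

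The single-cell libraries of whole epidermis give the level of the same genes by cell type. With 1 library for each state no test between states is possible, and intervals cover counting error only. Kept cells numbered 6491 (NP), 12853 (dpc16), 9031 (dpp6) and 8552 (dpp40), with medians of 4709, 4448, 5014 and 5638 UMIs (unique molecular identifiers, counted molecules) per cell, and any pair of libraries shared 75 to 154 barcodes. Values are CPM, UMIs of a gene scaled to the same total for the kept cells of each library or cluster.

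By summed CPM, the non-pregnant library held the least stress gene RNA and the dpp40 library the most. The 27 immediate early members summed to 7280 CPM in NP, 9599 at dpc16, 9869 at dpp6 and 11137 at dpp40, or 1.32, 1.36 and 1.53 times the NP value at dpc16, dpp6 and dpp40 (95% counting interval of the last 1.52 to 1.54). The 6 heat shock members summed to 3464 CPM in NP, 3678 at dpc16, 3904 at dpp6 and 4855 at dpp40. Hspb1 alone held 2155, 1880.3, 1979.5 and 2546 CPM of these sums, and it stood below NP at dpc16 and dpp6. Hspa1a, Hspa8, Hsph1 and Dnajb1 stood above NP in every later state. Heat shock sums and ratios of whole libraries, here and in the closing section, thus depend largely on Hspb1. Of the 33 members, 25 were higher than in NP at dpc16, 31 at dpp6 and 31 at dpp40, against 48.7, 58.6 and 43.3% of 4700 genes that averaged 20 CPM or more. The median ratio to NP was 1.27, 1.31 and 1.54 over the members and 0.99, 1.03 and 0.98 over those genes. In all, 24 members were lowest in NP and 23 highest in dpp40. This order differs from that of the bulk libraries, where the WT NP sums lay inside the range of the WT dpc16 sums, and the cells, the sort and the mice differ too.

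Fos had 1245 CPM in NP, 1813 at dpc16, 1501 at dpp6 and 2181 at dpp40. Jun had 588 CPM in NP, 775 at dpc16, 836 at dpp6 and 915 at dpp40. Both were lowest in NP and highest at dpp40. Atf3 had 558 CPM in NP, 799 at dpc16, 902 at dpp6 and 1040.4 at dpp40. Egr1 had 321 CPM in NP, 409.9 at dpc16, 402 at dpp6 and 449 at dpp40. For Atf3 each later state stood above the one before, while Egr1 at dpc16 and at dpp6 stood close together. Junb, listed near 0 in several bulk libraries, had 644 CPM in NP, 685 at dpc16, 976 at dpp6 and 994 at dpp40. Egr3 was at the other end, with 7, 13, 11 and 6 UMIs in whole libraries, so its order of states carries no information.

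Hspa1a had the largest ratio of dpp40 to NP among the members. Hspa1a had 245 CPM in NP, 297 at dpc16, 437 at dpp6 and 608 at dpp40. Hspa1b had 106 CPM in NP, 105 at dpc16, 79.7 at dpp6 and 186 at dpp40, and the split of UMIs between the copies is uncertain here too. Dnajb1 had 231 CPM in NP, 309 at dpc16, 369 at dpp6 and 415 at dpp40. Hspa8 had 715 CPM in NP, 1066 at dpc16, 1020.0 at dpp6 and 1078 at dpp40, close together in the 3 later states. Hsph1 had 11.7 CPM in NP, 20.2 at dpc16, 18.2 at dpp6 and 22.1 at dpp40, lowest in NP. In bulk the change of Hsph1 in WT dpc16 against NP had the other direction, at -0.39 ± 0.20 (SE, limma adjusted p = 0.622), in other cells and mice. Hspb1 had 2155 CPM in NP, 1880.3 at dpc16, 1979.5 at dpp6 and 2546 at dpp40, so dpc16 was its lowest state. Socs3 had 76.5 CPM in NP, 50.9 at dpc16, 95.7 at dpp6 and 152 at dpp40, and Maff had 27.3 CPM in NP, 18.9 at dpc16, 32.96 at dpp6 and 37.6 at dpp40, both lowest at dpc16. Egr2 had 40.8 CPM in NP, 30.4 at dpc16, 61.2 at dpp6 and 43.9 at dpp40, also lowest at dpc16.

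**Figure D4:**
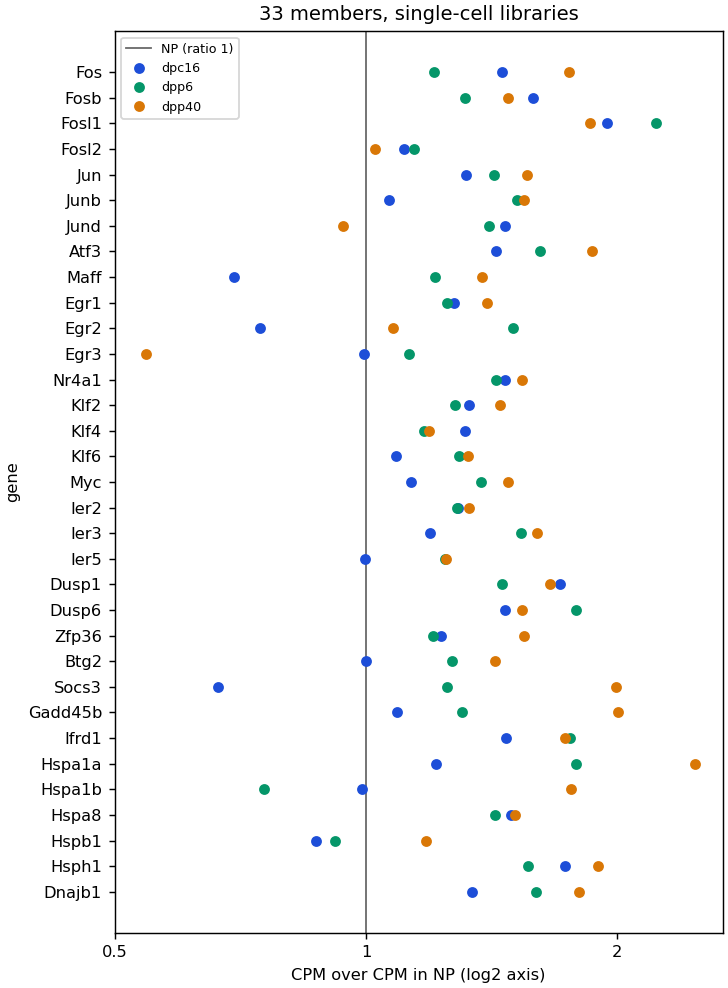
CPM of each of the 33 members in the dpc16, dpp6 and dpp40 single-cell libraries over its CPM in the NP library, on a log2 axis; 1 library a state, so no error is shown. Most points lie right of 1, with 31 of 33 members above NP at dpp40, and Maff, Egr2 and Socs3 lie left of it at dpc16.

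Cells of all 4 libraries were grouped into 26 clusters from variable genes without the 33 members and the further immediate early and heat shock genes above. The upstream genes and those of the endoplasmic reticulum and oxidative stress responses were not left out. Clusters were named only from marker lists. Since clusters come from the same cells, levels by cluster are a description with no test. Cluster 3 stood apart in every library: its immediate early sum was 28050 CPM in NP, 25359 at dpc16, 34772 at dpp6 and 33231 at dpp40, from 261, 889, 610 and 687 cells. It carried 6 of 10 basal markers but stayed unnamed, since its 10 leading genes by fold held Plet1, an upper follicle marker, and no basal marker. The first of these genes were Fosl1, Krt16, a keratin of activated epidermis, Epgn, an EGF receptor ligand, and Ch25h. The members Fosl1 and Ifrd1 were thus among its leading genes. Members were not used to form clusters, but not every gene that moves with them was left out. In the bulk fit with the covariate, 77 genes other than members passed with a positive slope. Of these, 21 were further immediate early genes and 1 a further heat shock gene, and the rest could still shape clusters. The levels of members in cluster 3 may thus depend in part on how it was formed. Its median depth was 5439 UMIs per cell and its median mitochondrial share 2.48%.

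The next highest was cluster 13, spinous-like and led by Ovol1, Fosl1 and Hbegf, at 18081, 13654, 20059 and 20077 CPM in NP, dpc16, dpp6 and dpp40. Its name rests on 3 raised spinous markers. The other spinous-like clusters, 8 with 9 and 7 with 5 raised, were far lower. Their means over libraries with at least 50 cells were 4823 CPM (cluster 8) and 6453 CPM (cluster 7), so spinous-like cells were not high as a class. The lowest sums belonged to sebaceous gland-like cluster 18, at 2709, 5180, 3967 and 3921 CPM, and to unnamed cluster 5, led by Mt4 and Krt1, at 3281, 4031, 3606 and 4346 CPM. The basal interfollicular-like cluster 2 stood between the highest and the lowest clusters at 7317, 7398, 7881 and 10103 CPM, from 838, 139, 939 and 1409 cells. Few dpc16 cells lay in cluster 2: 3853 of them lay in unnamed cluster 0, led by Tgm3, Thy1 and Il1r2 and with 7 of 10 basal markers raised, which held 58 NP, 159 dpp6 and 21 dpp40 cells. The immediate early sum in cluster 0 was 11194 CPM in NP, 10814 at dpc16 and 12425 at dpp6, so the dpc16 value of cluster 2 is not the level of most dpc16 cells with basal markers. The mean over libraries was 10285 CPM in Langerhans and myeloid-like cluster 19 and 9327 CPM in T cell-like cluster 23. The keratin Krt14 reached 2602 and 3639 CPM in these immune clusters, against 8271 CPM in cluster 2, and how much of their immediate early sum was carried over from keratinocytes was not tested. The highest cluster stood 10.35, 6.29, 9.64 and 8.48 times above the lowest in NP, dpc16, dpp6 and dpp40, which is wider than the 1.53 times between the highest and the lowest state.

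**Figure D5:**
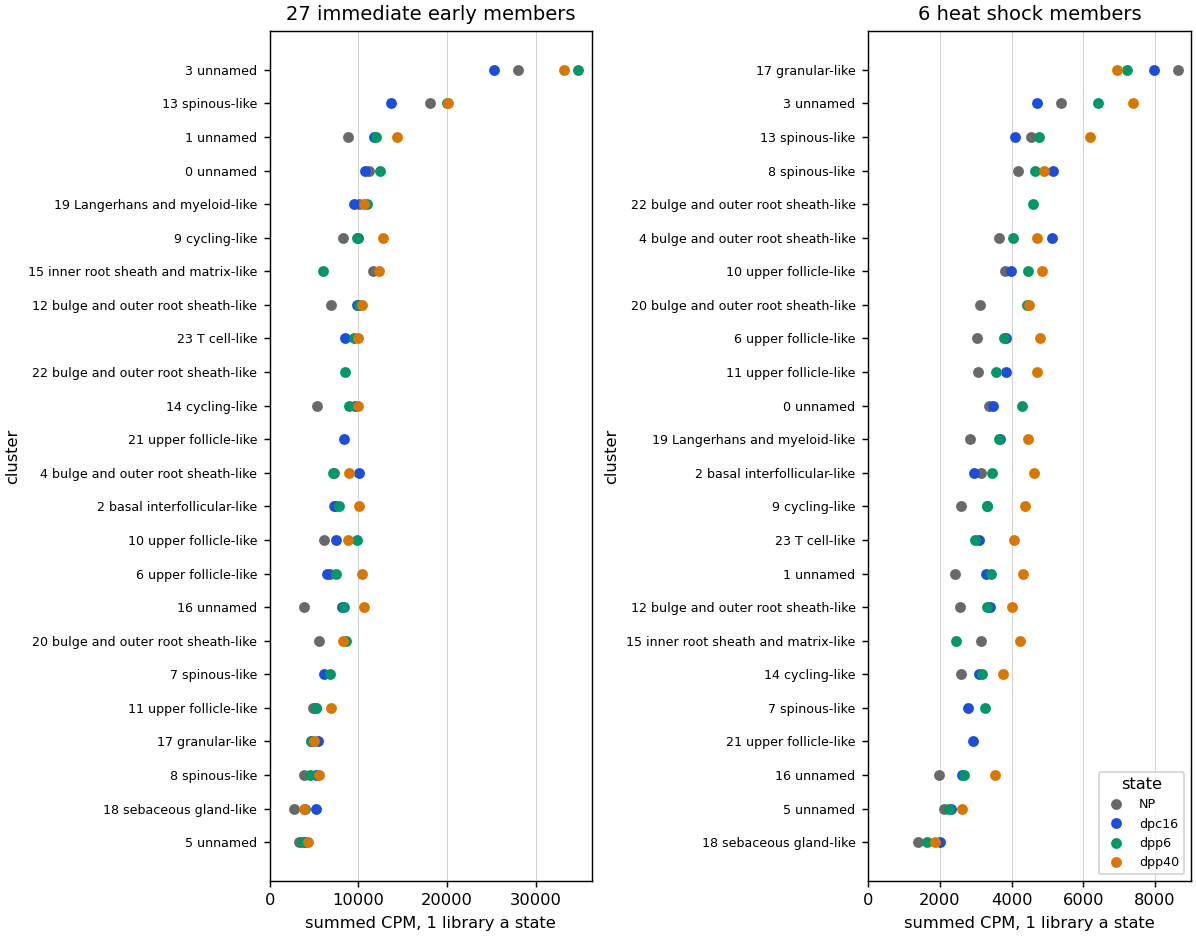
Summed CPM of the 27 immediate early members (left) and the 6 heat shock members (right) by cluster (rows, ordered by the mean over libraries), 1 point for each library with at least 50 cells in the cluster; colours give the state. Cluster 3 lies at 25359 CPM or above in all 4 libraries on the left, and granular-like cluster 17 leads on the right in 3 of 4.

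The heat shock sum had another order. Granular-like cluster 17 had the highest mean, with 8634, 7981, 7214 and 6948 CPM in NP, dpc16, dpp6 and dpp40, although its immediate early sum was among the lowest at 4721, 5456, 4708 and 5044 CPM. Hspb1 made up most of it, at a mean of 6984 CPM over the libraries, and these cells had a median of 13970 UMIs. Cluster 3 followed by its mean, at 5377, 4718, 6415 and 7399 CPM, and was the highest at dpp40. At dpc16 it ranked 4, below spinous-like cluster 8 (5152 CPM) and bulge and outer root sheath-like cluster 4 (5143 CPM) as well. Sebaceous gland-like cluster 18 was lowest in every library, at 1377, 2015, 1630 and 1860 CPM.

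Of the 33 members, 23 had their highest mean level in cluster 3. Fos reached 3539, 3391, 4434 and 5512 CPM there in NP, dpc16, dpp6 and dpp40, against 461, 654, 347 and 636 CPM in granular-like cluster 17 and 1644, 1551, 1722 and 2664 CPM in basal interfollicular-like cluster 2, in the same order of libraries. In cluster 0, where most dpc16 cells with basal markers lay, Fos stood at 2587 CPM at dpc16. Atf3 reached 3534, 3273, 4392 and 4359 CPM in cluster 3, against 175, 191, 161 and 256 CPM in cluster 17. Jun reached 2273, 1945, 2597 and 2654 CPM in cluster 3 and Egr1 1166, 949, 1352 and 1241 CPM. Within every library Fos, Jun, Egr1 and Atf3 were all highest in cluster 3. The widest spread over clusters was that of Fosl1, with a median ratio of highest to lowest cluster of 93.3 over the 4 libraries, where a cluster with fewer than 3 UMIs was counted as 3. The ratio was 26.3 for Dusp1 and 22.5 for Ifrd1, against 8.59 for Fos, 9.31 for Jun and 8.83 for Egr1. Fosl1 had 436, 556, 672 and 493 CPM in cluster 3 and 11.3, 26.1, 12.5 and 10.8 CPM in cluster 2. Dusp1 had 2720.4, 2763, 3623 and 3404 CPM in cluster 3 and Ifrd1 816, 938, 1184 and 957 CPM.

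Some members were highest outside cluster 3, though seldom in a single cell type. Egr2 was highest in upper follicle-like cluster 11 in all 4 libraries, at 163, 132, 165 and 137 CPM, against at most 11.3 CPM in any library in basal interfollicular-like cluster 2. The mean of Egr2 over libraries was also high in upper follicle-like cluster 10 (115 CPM) and in unnamed clusters 16 (93.5 CPM) and 1 (84.6 CPM). Klf4 was highest in spinous-like cluster 13 on average, at 1028 CPM, but cluster 3 was close at 992 CPM and led at dpp6. Hspb1 was highest in granular-like cluster 17 in all 4 libraries. The inducible HSP70 gene Hspa1a did not follow the immediate early genes: in all 4 libraries it was highest in Langerhans and myeloid-like cluster 19, at 568, 669, 1099 and 1001 CPM, while cluster 3 had 126, 124, 257 and 656 CPM. In NP and at dpc16 cluster 3 was thus at or near the lowest clusters for Hspa1a, although it led for Fos. Dnajb1 followed the immediate early genes instead, with 1002, 840.2, 1368 and 1325 CPM in cluster 3, and Hspa8 reached 1336, 1721, 1927 and 2141 CPM there. Keratinocyte RNA was counted in immune clusters too: Krt14 had a UMI in 83.6% of Langerhans and myeloid-like and 92.8% of T cell-like cells. Whether it was free RNA or came from doublets (droplets with several cells) was not tested. Low levels of a member in any cluster are therefore not read as expression.

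Clusters held the states in unequal parts, so a comparison inside clusters covers some cells better than others. Cluster 3, the highest for the immediate early sum, held 4.0, 6.9, 6.8 and 8.0% of cells in NP, dpc16, dpp6 and dpp40. Sums of whole libraries thus mix the share of cell types with the level inside them, and the part of each was not tested. Unnamed cluster 0 and spinous-like cluster 7 held 3853 and 1549 of the 12853 dpc16 cells and only 58 and 46 NP cells, and in cluster 0 the immediate early sum at dpc16 was 0.966 times that in NP. The immediate early sum was above its NP value at dpc16 in 13 of 18 clusters with at least 50 cells in both libraries, at dpp6 in 17 of 20 and at dpp40 in 19 of 19, with median ratios of 1.22, 1.141 and 1.43. The heat shock sum was above NP in 14 of 18, 18 of 20 and 18 of 19 clusters, with median ratios of 1.25, 1.19 and 1.44. Each state is 1 library, so state and library cannot be told apart.

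Among single cells the response was spread unevenly. With each cell thinned to 2000 UMIs, which left out no cell, the immediate early members held a median of 6 UMIs per cell in NP, 15 at dpc16, 8 at dpp6 and 13 at dpp40, while the upper quartile held 22, 30, 29 and 36 UMIs and the percentile 95 56, 56, 72 and 75 UMIs. The lower quartile held 3, 6, 4 and 5 UMIs, so cells with hardly any and cells with many of these transcripts lay in the same library. Thinned likewise, 57.4, 78.8, 57.3 and 74.3% of cells in NP, dpc16, dpp6 and dpp40 had a UMI of Fos (75.6, 91.2, 72.6 and 90.7% without thinning). The order of these shares differs from that of the Fos CPM for 2 pairs of states: by CPM dpp6 stood above NP and dpp40 above dpc16. No order is read from either pair, and the median of immediate early UMIs per cell was likewise higher at dpc16 than at dpp40, although the sum in CPM was higher at dpp40. In cluster 3 the median was 54, 52, 68 and 66 UMIs of immediate early members per thinned cell, against 2, 5, 2 and 3 in sebaceous gland-like cluster 18.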

How the data were processed

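The authors deposited bulk expression as FPKM in 1 table and single-cell expression as raw UMI counts per gene and barcode. Per the submitters' processing notes, cutadapt 1.14, Cell Ranger 2.2.0, TopHat2, Cuffdiff, Cufflinks 2.2.1 and the mouse build mm10 were used, in roles not stated. The annotation release, any scaling between libraries and the rule that called cells were not stated in the sources used here. Bulk columns headed only WT were taken as WT dpc16, the group no other heading names, and libraries are numbered by column order, which need not be the replicate number of the titles.

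FPKM were taken as log2(FPKM + 1), which understates changes of low genes. The 11497 genes that averaged 1 FPKM or more were fitted with limma 3.58.1 in R 4.3.3 (3 group means over 9 libraries, moderation with a trend, two-sided tests, Benjamini-Hochberg adjustment over all genes, threshold 0.05). The fit was run on simulated data in which each gene varied independently. Effects shared by many genes of a library were absent there, so that run does not bear on them. Gene IDs are those of the table, and positions are those of GENCODE on mm10.

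Barcodes with under 200 genes or over 10% mitochondrial UMIs were dropped; the files held 6635, 12984, 9351 and 8716 barcodes for NP, dpc16, dpp6 and dpp40, where the study states 6485, 12846, 9029 and 8552 cells. Cells were clustered with scanpy 1.11.5 and leidenalg 0.10.2 in Python 3.11.15 (2000 variable genes, 30 components, 15 neighbours, resolution 1, seed 1), with no integration of libraries. No doublet caller was run, and leaving out the 5% of cells with most UMIs in each library was an alternative. CPM are UMIs of a gene scaled to the total of the library or cluster, with exact Poisson intervals at 95%.

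The members and gene lists were chosen with earlier results of these data known. Members given by fold change were the 8 with the smallest p in each of cKO against WT dpc16 and WT dpc16 against NP, any past the threshold, and Fos, Jun, Egr1, Atf3, Hspa1a, Hspa1b, Dnajb1 and Hspa8, and from each other list at most 4 by smallest p. Outside that rule Fosb, Fosl1, Egr3, Nr4a1, Klf4 and Myc were shown in every library, Maff and Hspd1 were given for cKO against NP, and Csrnp1, Nr4a2, Bhlhe40 and Ppp1r15a were named for their slopes, all after their values were seen. Alternatives were a pseudocount of 0.1, filters of 0 and 5 FPKM, quantile normalization, a fit of the 6 libraries compared, leaving out each library, other cell filters and cluster settings, and thinning; the column number as a block and the covariate were added after seeing the data.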

Additional observations from a re-analysis of the deposited data

How the results depend on the processing

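The threshold count for members in cKO dpc16 against WT NP was 1 (Hsph1), 0 in the fit of the 6 libraries compared, 2 (Hsph1 and Maff) with the column number as a replicate block, and 0 to 2 when 1 library was left out. It was 0 without cKO dpc16 library 2, NP library 2 or NP library 3, and 2 without cKO dpc16 library 3. For members in cKO against WT dpc16 and in WT dpc16 against NP it was 0 under every setting run. Over all genes, with no filter on low FPKM 87, 9 and 314 genes passed in cKO against WT dpc16, WT dpc16 against NP and cKO against NP, in place of 247, 15 and 651. In the fit of 6 libraries 118 passed in cKO against WT dpc16 and 167 in cKO against NP. With the mean of the immediate early members as a covariate 298, 23 and 376 passed in the same order. With 1 library left out the counts ran from 41 to 406, 5 to 15 and 118 to 736. The replicate block gave 202, 10 and 553 genes. The labels do not say that column numbers pair libraries: deviations from the group mean of the same number correlated across genes at 0.31, 0.07 and 0.36 between WT dpc16 and cKO dpc16 libraries, and at -0.07, -0.07 and -0.21 between WT dpc16 and NP, so the block is given here only.

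With 1 library left out the log2 change of 20 of 33 members changed sign in cKO against WT dpc16, of 21 in WT dpc16 against NP and of 10 in cKO against NP. Among the members given by fold change these were, in cKO against WT dpc16, Fos (-0.16 to 1.23), Jun (-0.15 to 0.98), Atf3 (-0.58 to 1.40), Hspa1b (-0.029 to 1.09) and Dnajb1 (-0.49 to 0.70). In WT dpc16 against NP they were Fos (-0.79 to 0.61), Jun (-0.41 to 0.72), Egr1 (-0.27 to 0.97), Atf3 (-0.95 to 1.04), Hspa1a (-0.18 to 0.92) and Dnajb1 (-0.57 to 0.43). Under the settings that kept all libraries, 0 of 33 members changed sign in these 2 comparisons, and Dnajb1 did in cKO against NP.

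Inside single-cell clusters, and for some members, ratios of a later state to NP lay below 1, as given above. Over whole single-cell libraries every ratio of the immediate early or heat shock sum to NP stayed above 1. For the immediate early sum at dpc16, dpp6 and dpp40 it was 1.27, 1.37 and 1.499 with at most 5% mitochondrial UMIs, and 1.34, 1.28 and 1.54 after thinning. Without the 5% of cells with most UMIs it was 1.35 at dpp6 and 1.56 at dpp40, and with mitochondrial and ribosomal genes out of the total 1.35 at dpc16 and 1.33 at dpp6. For the heat shock sum the ratios were 1.03, 1.142 and 1.38 with at most 5% mitochondrial UMIs, 1.11, 1.18 and 1.49 without the cells with most UMIs, and 1.11, 1.19 and 1.48 after thinning, and 1.08 at dpc16 and 1.10 at dpp6 with mitochondrial and ribosomal genes out. With members allowed among the variable genes the highest cluster stood 12.7, 9.35, 14.0 and 12.4 times above the lowest in NP, dpc16, dpp6 and dpp40. The cause of these shifts was not tested.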
